A study of Mus musculus with 12 samples.

Results

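The genes described here are 9 members of the Wnt and beta-catenin pathway that act in liver zonation and in hepatoma: Lgr4, Apc, Axin1, Axin2, Ctnnb1, Tcf7l2, Lef1, Glul and Tbx3. They were chosen by name, with earlier results of these data known, out of 21887 protein-coding genes in the RefSeq table of assembly GRCm38.p6. A gene was said to hold a peak, or to be marked, when a deposited interval overlapped its body with 1 kb on both sides. The intervals are peaks from immunoprecipitated DNA pulled down with S9.6, which recognises RNA-DNA hybrids; such hybrids form R-loops when an RNA pairs with 1 strand of the DNA. The series holds 12 libraries in 6 groups of 2, made from HEPA1-6, a mouse hepatoma line labelled hepatocyte and wild type, and from liver of wild-type C57/Bl6 mice whose age was not given. For each source the groups were an immunoprecipitate, an immunoprecipitate treated with RNase H1, which degrades the RNA of a hybrid, and an input, and no group carried another treatment. The data used here were 1 peak list per source, named as a merged immunoprecipitate against an input. Which libraries or animals were merged was not stated, the RNase H1 groups entered no comparison, and the depth behind the peaks is unknown. With 1 list per source there is no replicate check of any difference between the lists, and no test was made.

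Wnt ligands bind Frizzled receptors and their co-receptors, and R-spondins acting through Lgr receptors keep those receptors on the cell surface. Without a ligand, a complex built on the scaffolds Axin and Apc marks beta-catenin for destruction; with a ligand, beta-catenin enters the nucleus and binds Tcf and Lef factors at target genes. In the liver this pathway is active around the central vein, where hepatocytes make glutamine synthetase, and it is often switched on in liver tumours.

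The HEPA1-6 list held 28717 peaks over 56.4 Mb and the liver list 14908 peaks over 21.6 Mb. The second list is called liver-labelled below, because its peaks do not show which cells it came from. Of 10 hepatocyte markers, 2 (Alb and Hnf4a) held a liver-labelled peak and 3 a HEPA1-6 peak, and 9 of 10 cell cycle genes held a peak in each list. Over all 56 marker genes the counts were 16 (liver-labelled, 28.6%) and 19 (HEPA1-6, 33.9%), where 29.7% and 42.0% of all protein-coding genes held a peak. A peak was present at 1 (liver-labelled) and 2 (HEPA1-6) of 7 periportal hepatocyte markers, and at 2 of 6 Kupffer cell markers in each list (Cd68 and Csf1r). Cd68 is only 1958 bp long and was counted with 1 kb on both sides. Whether a peak belongs to a neighbouring gene was not examined for the markers or for the other pathway genes below. None of 7 endothelial markers (Pecam1, Kdr, Stab2, Lyve1, Clec4g, Cdh5 and Thbd) held a peak in either list. In each list 1 of 6 stellate cell markers and 1 of 5 cholangiocyte markers were marked, and of 5 lymphocyte markers 0 (liver-labelled) and 1 (HEPA1-6). A peak is not a level of expression, and the part of cell composition in the results below was not tested.

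In HEPA1-6, 8 of the 9 genes held a peak, where 42.0% of all protein-coding genes did. In the liver-labelled list 7 did, where the share of all protein-coding genes was 29.7%. The same 7 genes held a peak in both lists (27.8% of protein-coding genes), Apc was marked in HEPA1-6 alone (14.2%), no gene in the liver-labelled list alone (1.89%), and Lef1 in neither (56.1%). Longer genes have more room for a peak, and the members are long, with a median of 64.6 kb against 17.2 kb for protein-coding genes. Among the 13014 protein-coding genes within their length range (9.80 to 191.9 kb), peaks were present in 49.8% for HEPA1-6, in 34.1% for the liver-labelled list, in 32.3% for both and in 48.4% for neither. Lengths within this range were not matched to those of the members, and its lower end is below the median of all protein-coding genes. In all, 41 HEPA1-6 peaks and 30 liver-labelled peaks lay at these genes, and 22 and 15 of them were at Tcf7l2.

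Of the 9 genes, 6 were matched by symbol in the RefSeq promoter table (GRCm38.p6): Ctnnb1, Axin2, Tcf7l2, Glul, Lgr4 and Lef1. The first 5 have a peak over their first listed start in both lists and Lef1 has none, so the 250 bases before that start are shown for all 6, on the strand of the gene. Capitals mark runs of 3 or more G on that strand. Clusters of G on the strand that does not pair with the RNA are known to favour R-loops within transcribed DNA. The bases shown lie before the first listed start, and a link between their G runs and the peaks was not tested.
Ctnnb1 (chr9:120933150-120933399, strand +): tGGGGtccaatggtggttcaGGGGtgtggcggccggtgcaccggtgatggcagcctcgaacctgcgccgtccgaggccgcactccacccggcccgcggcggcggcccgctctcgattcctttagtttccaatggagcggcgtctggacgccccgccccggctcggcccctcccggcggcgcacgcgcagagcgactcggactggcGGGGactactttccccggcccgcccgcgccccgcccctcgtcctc
Axin2 (chr11:108920099-108920348, strand +): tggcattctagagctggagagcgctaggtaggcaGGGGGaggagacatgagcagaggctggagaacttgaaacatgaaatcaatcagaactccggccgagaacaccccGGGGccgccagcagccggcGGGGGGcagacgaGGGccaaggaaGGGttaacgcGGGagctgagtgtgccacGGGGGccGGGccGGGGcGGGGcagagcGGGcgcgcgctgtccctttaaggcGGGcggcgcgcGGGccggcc
Tcf7l2 (chr19:55741560-55741809, strand +): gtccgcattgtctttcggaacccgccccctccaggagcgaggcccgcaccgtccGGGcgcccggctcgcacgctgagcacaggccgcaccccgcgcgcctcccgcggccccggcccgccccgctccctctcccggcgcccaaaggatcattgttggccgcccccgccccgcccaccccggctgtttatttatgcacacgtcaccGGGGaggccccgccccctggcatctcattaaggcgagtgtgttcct
Glul (chr1:153899679-153899928, strand +): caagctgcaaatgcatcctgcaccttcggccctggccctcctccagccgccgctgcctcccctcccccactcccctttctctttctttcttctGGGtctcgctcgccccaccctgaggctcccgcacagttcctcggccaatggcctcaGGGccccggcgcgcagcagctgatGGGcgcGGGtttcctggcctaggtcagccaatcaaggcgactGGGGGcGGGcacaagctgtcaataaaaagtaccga
Lgr4 (chr2:109917397-109917646, strand +): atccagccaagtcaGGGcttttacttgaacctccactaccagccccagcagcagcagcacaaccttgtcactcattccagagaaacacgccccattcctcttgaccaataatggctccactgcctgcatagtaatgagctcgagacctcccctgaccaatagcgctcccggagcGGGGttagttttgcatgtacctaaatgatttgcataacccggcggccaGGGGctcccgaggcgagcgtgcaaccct
Lef1 (chr3:131110047-131110296, strand +): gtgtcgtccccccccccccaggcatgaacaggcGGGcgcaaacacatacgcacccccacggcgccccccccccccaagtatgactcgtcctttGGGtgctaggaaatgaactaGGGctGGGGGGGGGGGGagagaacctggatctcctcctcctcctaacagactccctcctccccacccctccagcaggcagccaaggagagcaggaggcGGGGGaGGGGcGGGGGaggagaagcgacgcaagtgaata
The promoters of the genes with a peak differ widely in these letters. GC skew, the excess of G over C divided by their sum, was computed over the table's window of 250 bases before to 50 after the start. Axin2 had a skew of 0.22 and 14 G runs, and 92.9% of 17492 protein-coding gene promoters had a lower skew. Tcf7l2 lay at the other end, with a skew of -0.29, only 2 G runs but 20 runs of 3 or more C, and 2.24% of promoters below it. Ctnnb1 had a skew of -0.05, 3 G runs and 46 CpG, and 98.0% of promoters had fewer CpG. Glul had a skew of -0.14 and 17 CpG, and Lgr4 a skew of -0.09 and 18 CpG. Lef1, with no peak, did not stand apart from these genes in composition: its GC content was 67.3%, its skew 0.03, and it held 18 CpG and 8 G runs. Over all protein-coding gene promoters, those under a HEPA1-6 peak had a median of 24 CpG and the others 9, and under a liver-labelled peak the medians were 24 and 11, while median skews were near 0 in each class. The core recognised by Tcf and Lef factors was searched as CTTTGAA and CTTTGAT on both strands, which do not overlap one another. Neither was found in any listed promoter of the 6 genes, and 7.83% of protein-coding gene promoters held one or the other in a window of this length. That says only that these letters are not in this window.

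**Figure D1:**
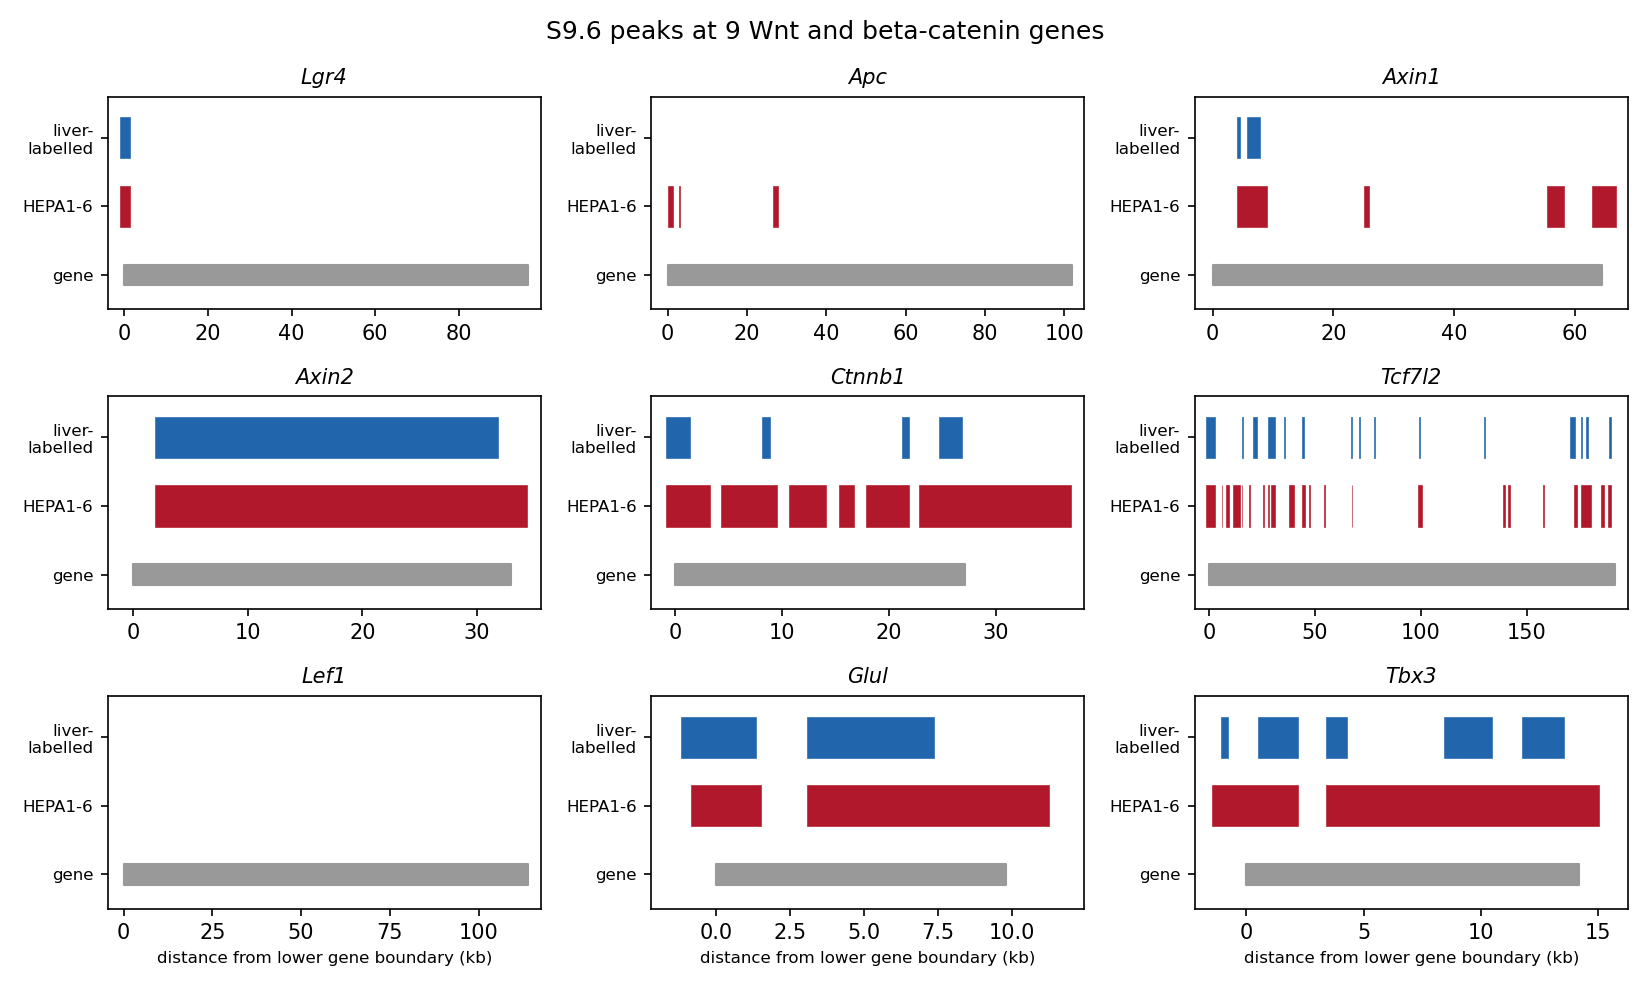
Positions of peaks at the 9 genes, as distance in kb from the lower gene boundary, with the gene body in grey, HEPA1-6 peaks in red and liver-labelled peaks in blue; the scale differs between panels. Axin2 lies under 1 wide peak in each list, Tcf7l2 holds 22 and 15 narrower peaks, Lgr4 holds the same interval in both lists, Apc holds HEPA1-6 peaks only and Lef1 holds none.

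Lgr4 encodes a receptor for R-spondins, the ligands that strengthen Wnt signalling. It held 1 peak in each list, and the interval was the same to the base, chr2:109916738-109919039 (2302 bp), around the first start, with 909 bp before it and 1392 bp after it. Identical intervals made up 1 of 26 overlapping pairs at the 9 genes and 6.29% of all 11455 overlapping pairs. The authors' score, an integer on an unstated scale that starts at 10, is used here only to rank peaks within a list. The Lgr4 peak scored 22 in HEPA1-6, where 53.3% of peaks scored lower, and 27 in the liver-labelled list, where 65.5% scored lower, so it was near the middle of both lists. The remaining part of this 96.6 kb gene was free of called peaks, and 1.44% of its bases were covered in both lists.

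Apc encodes the large protein that holds beta-catenin in the destruction complex. It held 3 HEPA1-6 peaks and no liver-labelled peak. The HEPA1-6 peaks lay within the first 27.9 kb from the lower boundary of this 101.9 kb gene on chromosome 18: 34220344 to 34221750 (score 14), 34223148 to 34223388 (score 32) and 34246750 to 34248198 (score 17). The first also overlapped the pseudogene Gm10548. Scores of 14 and 17 were in the lower part of the list (12.8% and 30.5% of peaks lower), whereas the 241 bp peak with a score of 32 had 76.3% below it. The nearest liver-labelled peak lay 3.25 kb outside the gene and scored 12. Signal too weak to be called leaves no entry, so this absence concerns called peaks at an unknown depth.

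Axin1 encodes the scaffold of the destruction complex and spans 64.6 kb on chromosome 17. Its leading HEPA1-6 peak, 26135214 to 26140149, scored 57 (92.6% of the list lower), began 4.00 kb inside the lower boundary and covered Gm46600, an lncRNA listed on the opposite strand to the peak. The liver-labelled list had 2 peaks inside that interval, 26135214 to 26135822 (score 16) and 26136856 to 26139026 (score 27), the first with the same start. Further HEPA1-6 peaks scored 11, 21 and 23; the last ran 2226 bp past the upper boundary into Pdia2. None of these 3 overlapped a liver-labelled peak. Peaks covered 15.8% of the gene in HEPA1-6 and 4.30% in the other list.

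Axin2 encodes a second scaffold that is itself induced by beta-catenin and so restrains the pathway. It was the most completely covered of the 9 genes. A peak of 32428 bp in HEPA1-6 (chr11:108919740-108952167, score 261) and one of 29905 bp in the liver-labelled list (chr11:108919740-108949644, score 112) began at the same base, 609 bp before the first start in the promoter table, which itself lies 2.52 kb inside the lower gene boundary. These peaks ranked 4th and 3rd by width in their lists, whose median widths were 1091 and 881 bp, and 99.6% and 98.2% of peaks scored lower. They covered 94.2% and 90.7% of the gene body. Of 13014 protein-coding genes in the length range of the members, 71 (HEPA1-6) and 11 (liver-labelled) were covered as much, Axin2 included.

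Ctnnb1 encodes beta-catenin itself, which is both the signal carrier of the pathway and a part of cell junctions. In HEPA1-6 it held 6 peaks, which followed one another along the gene with scores of 204, 33, 19, 16, 36 and 32, and together covered 79.4% of the 27.1 kb body. The liver-labelled list had 4 peaks, with scores of 119, 20, 23 and 15, that covered 18.4%. Each of these 4 lay wholly inside a HEPA1-6 peak. The peak over the start began at 120932558 on chromosome 9 in both lists, 842 bp before the first start, and reached 120936652 (HEPA1-6) or 120934815 (liver-labelled). It was the highest-scoring peak of the gene in both, with 99.4% and 98.4% of the lists below it, and it also covered a further listed start 0.178 kb downstream. The last HEPA1-6 peak was 14267 bp wide and ran 9976 bp past the gene's upper boundary into Ulk4, which is listed on the other strand. It overlapped 4 liver-labelled peaks, of which 1 lay at Ctnnb1 and ended inside the gene.

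Tcf7l2 encodes a Tcf factor, a DNA-binding partner of beta-catenin. Its 191.9 kb on chromosome 19 held 22 HEPA1-6 and 15 liver-labelled peaks, and only 49 and 24 of 21887 protein-coding genes, this one included, held as many. It is also the longest of the 9 genes, and per 10 kb it held 1.15 and 0.78 peaks, fewer than Ctnnb1 with 2.21 and 1.48. The peak at the start had nearly the same interval in both lists, 55740484 to 55744552 (score 103) and 55740484 to 55744550 (score 88), which also overlapped the lncRNA Gm31734. The other peaks were lower: the HEPA1-6 scores went from 11 to 103 with a median of 17.5, and the liver-labelled scores from 13 to 88 with a median of 18. Widths were small, with medians of 966 and 653 bp, and 14.9% and 8.63% of the gene was covered. A 304 bp liver-labelled peak 67.2 kb into the gene (55808995 to 55809298) scored 47, with 89.9% of its list lower, and the HEPA1-6 peak with the same end scored 25 (62.0% lower). At the internal start listed 153.5 kb downstream, no peak was called; the nearest lay 4.02 kb away in HEPA1-6 and 16.9 kb away in the liver-labelled list. All 22 and all 15 peaks carried the strand of the gene.

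Lef1 encodes the Lef factor, a relative of Tcf7l2. It had no peak in either list, alone among the 9 genes, over a body of 114.1 kb and 4 listed starts. The nearest peak to the gene was 19.4 kb away in HEPA1-6 (score 21) and 93.1 kb away in the liver-labelled list (score 39).

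Glul encodes glutamine synthetase, which makes glutamine from ammonia and which beta-catenin restricts to hepatocytes around the central vein. It held 2 peaks in each list. The first covered the start: chr1:153899071-153901424 (score 46) in HEPA1-6 and chr1:153898716-153901266 (score 40) in the liver-labelled list, with 88.5% and 85.2% of the lists lower. It also covered Mir8114 and overlapped a part of the lncRNA Gm38440, which lies just before Glul on the other strand. The second peak began at 153902994 in both lists; it was 8182 bp wide in HEPA1-6 (score 27), running 1452 bp past the gene, and 4300 bp wide in the liver-labelled list (score 22). The covered share was 84.0% and 57.6% of the 9.80 kb gene. In DNA from a whole tissue, fewer cells with a hybrid and fewer hybrids per cell cannot be told apart.

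Tbx3 encodes a T-box repressor that is a beta-catenin target in liver. It was the only one of the 9 genes with more liver-labelled peaks (5) than HEPA1-6 peaks (2), which was so for 13.4% of protein-coding genes with a peak in both lists. The HEPA1-6 peaks were wide, 119669077 to 119672744 (3668 bp, score 78) and 119673922 to 119685592 (11671 bp, score 64) on chromosome 5, and every liver-labelled peak lay inside one of them. The liver-labelled peaks had scores of 22, 50, 36, 21 and 40 in order of position and widths of 304 to 2068 bp. The first of these 5 lay wholly before the lower gene boundary and counted only through the 1 kb added there. HEPA1-6 peaks covered 91.7% of the gene body and liver-labelled peaks 45.7%, so the larger number went with narrower peaks. The first peaks also overlapped the lncRNA Tbx3os1 and the long HEPA1-6 peak reached Tbx3os2, both listed on the strand opposite to these peaks.

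**Figure D2:**
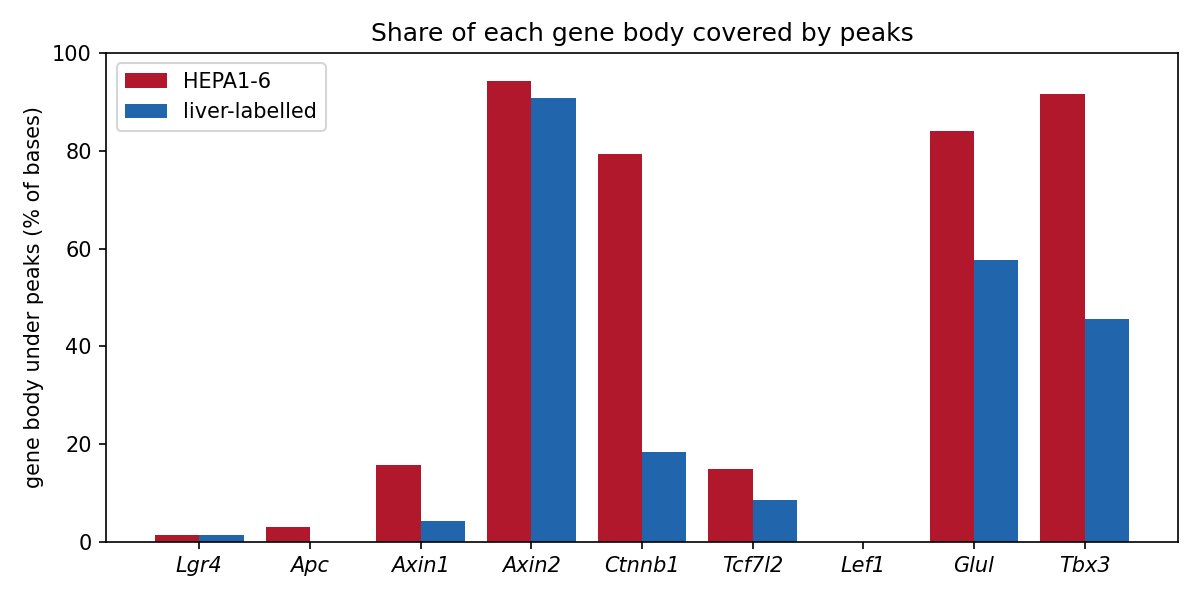
Percent of the bases of each gene body under HEPA1-6 peaks (red bars) and liver-labelled peaks (blue bars), with 1 list per source and hence no error bars. Axin2 is covered to 94.2% and 90.7%, Ctnnb1 to 79.4% and 18.4%, and Lef1 has no bar.

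The covered share thus varied over the whole range among genes of 1 pathway. In 6 of the 7 genes marked in both lists, more of the body was covered in HEPA1-6, and Lgr4 was equal; of the 6077 protein-coding genes marked in both, 87.1% were covered more in HEPA1-6, whose list also covers more of the genome. Axin2 and Lgr4 kept nearly the same extent in both lists, while Ctnnb1, Axin1 and Tbx3 were covered in the liver-labelled list to a much smaller share.

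Starts were then compared with gene bodies. With 1 kb on both sides, the first start of 5 of the 6 genes in the promoter table held a peak in both lists, where the shares of all protein-coding gene starts were 25.1% (HEPA1-6), 17.3% (liver-labelled) and 15.8% (both). In Ctnnb1, Glul and Tcf7l2, the genes of these with several peaks, the peak over the start scored highest in each list. That was the case for 51.1% (HEPA1-6) and 57.5% (liver-labelled) of protein-coding genes with several peaks of which 1 covers the start.

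**Figure D3:**
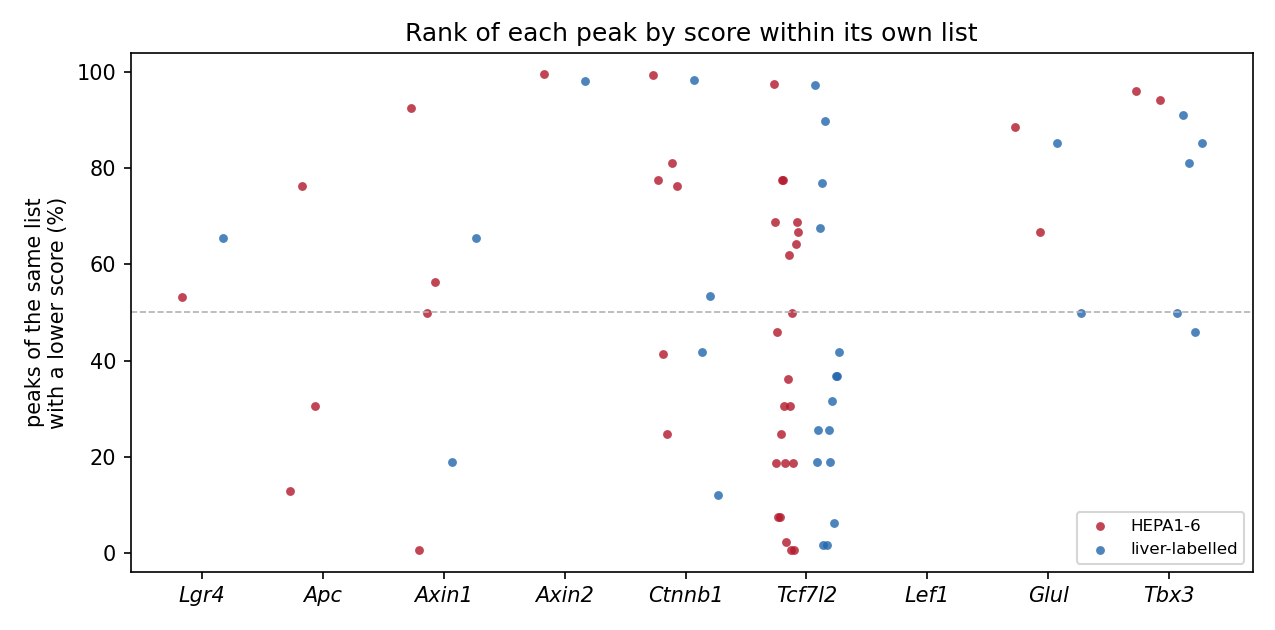
Percent of peaks of the same list that scored lower than each peak at the 9 genes (HEPA1-6 red, liver-labelled blue); points of a gene are spread sideways in the order of their position along the gene, and the dashed line marks 50%. The highest points belong to Axin2 and to the first peaks of Ctnnb1 and Tcf7l2, and the other Tcf7l2 peaks spread down to the bottom of both lists.

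Of the 41 and 30 peaks together, 23 HEPA1-6 peaks scored at or above the list median of 21, and 15 liver-labelled peaks at or above 22. These counts mix unlike genes. Tcf7l2 supplied 22 and 15 of the peaks, with median scores of 17.5 and 18, below both list medians. At Axin2, Lgr4, Glul and Tbx3 the median score was above the list median in both lists. At Ctnnb1 and Axin1 it was above in HEPA1-6 only, and at Apc (17) it was below. Of the HEPA1-6 peaks, 27 of 41 were wider than the list median, and of the liver-labelled peaks 15 of 30.

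Overlap between the lists was counted from 1 bp. At these genes, 25 of 30 liver-labelled peaks (83.3%, exact binomial 95% interval 65.3 to 94.4%) overlapped a HEPA1-6 peak, against 75.9% in the whole list. In the other direction 21 of 41 HEPA1-6 peaks (51.2%, 35.1 to 67.1%) overlapped a liver-labelled peak, against 31.8% in the whole list. These intervals cover counting error only, and peaks of 1 gene are not independent. The whole lists are also an unlike set, as they include peaks outside genes and at genes marked in 1 list only. Of the 8 members with a HEPA1-6 peak, 7 were marked in both lists, and 27 of the 41 peaks were wider than the list median. The part of these differences in the overlap was not tested. The 5 liver-labelled peaks without a HEPA1-6 partner all lay in Tcf7l2. Among 26 overlapping pairs at these genes, 13 shared a start or an end to the base, which was close to the 46.1% of all 11455 pairs.

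At Glul and Ctnnb1 the lists differed in strand. The files give a strand to each of these peaks, and how it was assigned is not given in the sources used here. At Glul both HEPA1-6 peaks were on the minus strand and both liver-labelled peaks on the plus strand, the strand of the gene. At Ctnnb1, a plus-strand gene, the HEPA1-6 start peak was on the minus strand and the other 5 on the plus strand, whereas the liver-labelled list had its start peak and the next on the plus strand and the last 2 on the minus strand. Of the 26 pairs, 5 had opposite strands (19.2%, exact 95% interval 6.55 to 39.4%), 3 at Ctnnb1 and 2 at Glul. That was near the 14.0% of all pairs with a strand in both lists. Of peaks that overlap 1 gene only, 93.4% (HEPA1-6) and 90.6% (liver-labelled) carried the strand of that gene. At the members with a listed strand, 29 of 32 HEPA1-6 peaks and 21 of 23 liver-labelled peaks did, and 22 and 15 of these were at Tcf7l2.

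Finally, 106 other genes of the pathway, also listed with earlier results of these data known, were counted by role. Peaks were present at 56 of them in HEPA1-6, at 50 in the liver-labelled list and at 49 in both, and the share varied with the role. In the group of transduction and the destruction complex, 14 of 15 genes held HEPA1-6 peaks and 13 liver-labelled peaks, and in that of nuclear factors 12 of 15 and 11. Of 19 Wnt ligand genes 6 and 4 were marked, and none of 14 secreted and membrane inhibitors, such as Dkk1, Sfrp1 and Notum, held a peak in either list (exact 95% interval up to 23.2%). The background shares are 42.0% and 29.7%. The inhibitors were also short, with a median of 9.11 kb against 36.1 kb for the transduction group. The Frizzled and co-receptor genes were shorter still, with a median of 7.19 kb, and 7 and 6 of 15 were marked. Of 18 target genes, with a median of 11.5 kb, 12 and 11 were marked. The part of gene length was not tested.

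**Figure D4:**
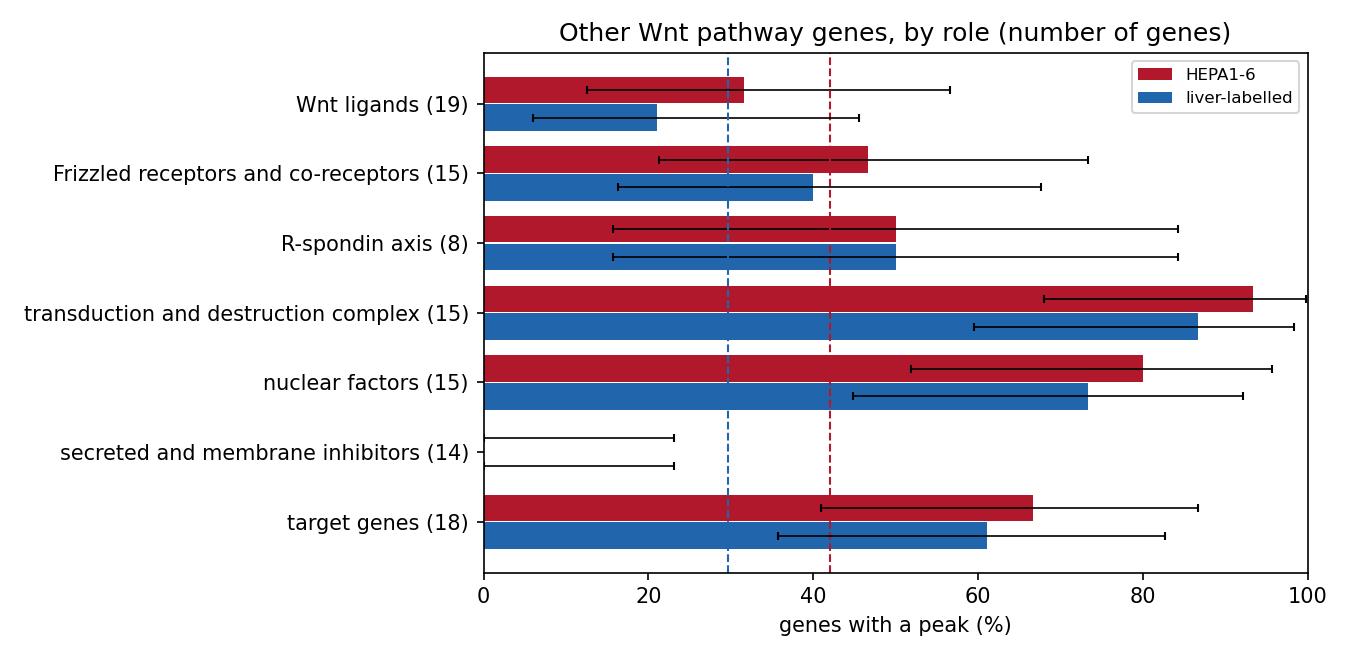
Percent of other Wnt pathway genes that held a peak, by role with the number of genes in brackets, in HEPA1-6 (red) and the liver-labelled list (blue); error bars are exact binomial 95% intervals, which cover counting error only, and dashed lines mark the shares of all protein-coding genes (42.0% and 29.7%). The transduction group reaches 93.3% and 86.7%, and the inhibitors are at 0.

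Among the ligands, Wnt5b, which acts largely outside beta-catenin signalling, held the highest-ranking peak, with scores of 138 and 76. Wnt6 held 2 and 5 peaks. Wnt2, Wnt2b and Wnt16 held a peak in HEPA1-6 only, with scores of 12 to 16, and Wnt1 in the liver-labelled list only (score 18). Of Wnt2, Wnt9b and the R-spondin gene Rspo3, which endothelium of the central vein is known to make, Wnt2 held that 1 peak (score 14) and the other two none. Wnt9b, Rspo3 and the inhibitors named above were named after their values were seen. So were, below, Lrp6, Tcf7, Oat, Lect2, the leaders of the liver-labelled list alone and the targets without a peak. Wls, which carries Wnt proteins to the cell surface, held 1 peak in each list with scores of 3631 and 1070, the highest of the pathway list.

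Of 15 genes for Frizzled receptors and co-receptors, HEPA1-6 marked 7 and the liver-labelled list 6. Fzd8 (scores 183 and 71), Fzd6 (83 and 41) and Fzd10 (70 and 35) ranked highest in HEPA1-6; in the liver-labelled list Fzd8 led, followed by Fzd7 (43). The co-receptor gene Lrp5 held 11 HEPA1-6 peaks, none above a score of 26, and no liver-labelled peak, while its relative Lrp6 held 22 and 9. In the R-spondin axis 4 of 8 genes held peaks, the same 4 in both lists. Rnf43 and Znrf3, which remove Frizzled receptors and are themselves beta-catenin targets, held 14 and 17 HEPA1-6 peaks and 6 and 4 liver-labelled peaks. Lgr5, a relative of Lgr4 and a marker of cells with strong Wnt signalling, held 16 HEPA1-6 peaks and 1 liver-labelled peak, with top scores of 92 and 31.

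In the transduction group, Apc2 (top scores 131 and 66) and the casein kinase genes Csnk1a1 (130 and 97) and Csnk1d (118 and 63) ranked highest in HEPA1-6, with Csnk1a1 followed by Fbxw11 (73) in the liver-labelled list, and Dvl3 held a peak in HEPA1-6 only (score 23). Among nuclear factors, the co-activators Bcl9 (84 and 68) and Bcl9l (84 and 38) and the acetyltransferase Kat5 (69 and 28) led in HEPA1-6, while in the liver-labelled list Bcl9 was followed by Tle3 and Tle4 (39 each), and Tcf7l1 held a peak in HEPA1-6 only (score 17). Thus Tcf7, with 8 and 6 peaks, and Tcf7l2 held peaks in both lists, Tcf7l1 in HEPA1-6 only and Lef1 in neither.

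Of 18 target genes, 12 held HEPA1-6 peaks and 11 liver-labelled peaks. The highest ranks in HEPA1-6 were those of Sox4 (84 and 33), the feedback inhibitor Nkd1 (72 and 41, with 11 and 8 peaks) and Birc5 (63 and 29), whereas Jun (56) led in the liver-labelled list. Cyp27a1 held a peak in HEPA1-6 only (score 14). The 6 targets without a peak in either list were Cyp2e1, Cyp1a2, Rhbg, Slc1a2, Gstm3 and Slc13a3. Cyp2e1 and Cyp1a2 are cytochrome P450 genes of hepatocytes around the central vein. Glul, the glutamine synthetase gene of the same hepatocytes, did hold peaks in both lists. So did the listed targets Oat (3 and 2 peaks, top scores 34 and 39) and Lect2 (2 and 1 peaks, top scores 35 and 22).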

How the data were processed

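Per the labels' protocols, genomic DNA was immunoprecipitated with S9.6, sonicated and sequenced as paired 75-base reads, with 10 PCR cycles for immunoprecipitates and 4 for inputs. The submitters' processing notes name CASAVA 1.8.2, cutadapt, Bowtie2, SAMtools, bedtools and MACS2 and the build mm10, without roles or thresholds. Each deposited list gives the authors' score per peak, an integer of unstated scale, used for ranks within a list only. The 2 lists were laid over the RefSeq gene table of GRCm38.p6 (the assembly of mm10), and positions are 1-based. Gene starts and strands came from the RefSeq promoter table, as the first listed start. Overlaps, covered bases and sequence features were computed in Python 3.11.15 with pandas 2.3.3, numpy 2.4.6 and scipy 1.17.1; overlap and coverage functions were tested on simulated intervals. Exons and introns were not analysed here. The members and lists were chosen with earlier results of these data known. Named genes are all members and, per role, those with a peak in 1 list only and the 3 with the highest rank by score in either list; the report says which others were named after their values were seen. Alternatives changed the flank, the score minimum, the number of peaks, the overlap and the start window.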

Additional observations from a re-analysis of the deposited data

How the results depend on the processing

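For 9 results, 25 alternatives were run, and 23 stayed within 1.5 times the reported count. Requiring an overlap of 50% of both peaks lowered the liver-labelled peaks with a HEPA1-6 partner at the 9 genes from 25 to 9 and the HEPA1-6 peaks with a liver-labelled partner from 21 to 9, and a peak inside one more than 2 times as wide fails this rule by construction. With 5 kb on both sides, Apc also held a liver-labelled peak. The 5 kb flank gave 63 and 52 pathway genes with a peak (HEPA1-6 and liver-labelled), and peaks at or above the list median score gave 47 and 38. No paired analysis was possible because each source has only 1 merged list, so that no replicate could be left out either. The unknown depth limits every statement that a gene held no peak.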
